A study of Mus musculus with 16 samples.

Results

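Adenylyl cyclases and the subunits of protein kinase A (PKA) were followed through DOX treatment of mIMCD3 cells. The 10 genes were taken by name: the cyclases *Adcy1*, *Adcy3*, *Adcy6*, *Adcy7* and *Adcy9*, the catalytic subunits *Prkaca* and *Prkacb*, and the regulatory subunits *Prkar1a*, *Prkar2a* and *Prkar2b*, out of 54393 genes in the deposited count table. mIMCD3 is a line of wild-type genotype in the labels, derived from the inner medulla of a mouse transgenic for SV40, so every group carries that background. Cells were grown on permeable filters for 10 days in a serum-containing epithelial medium whose supplements include epinephrine, an activator of adenylyl cyclases through beta-adrenergic receptors, and were given either DMSO (the vehicle) or doxycycline (DOX, a tetracycline antibiotic used to induce transgenes) at 2 µg/mL for 3 or 6 days. Each of the 4 groups (DMSO at 3 days, DOX at 3 days, DMSO at 6 days, DOX at 6 days) had 4 replicate libraries of polyadenylated RNA, 16 in all. Neither the labels nor the methods state that replicates came from separate thaws or passages, so p-values measure the spread between these libraries only.

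Adenylyl cyclases are membrane enzymes that make cyclic AMP when a receptor coupled to the G protein Gs is occupied. Cyclic AMP binds the regulatory subunits of PKA and frees the catalytic subunits, which phosphorylate channels, cytoskeletal proteins and the transcription factor CREB. In principal cells of the collecting duct this is the route by which vasopressin moves the water channel aquaporin-2 to the apical membrane.

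Total counts ran from 16933343 to 23960860 per library, and 3 counts, taken as the floor, came to 0.125 to 0.177 CPM (counts divided by library size, here scaled by TMM). Replicates of a group correlated at 0.981 to 0.992. DOX at 3 days replicate 1 stood apart by transcript length. Its difference from the other replicates of its group correlated at 0.348 with log2 transcript length over genes, against -0.172 to 0.235 in the other 15 libraries. Results that rest on this library are given with and without it. By mean correlation with its group, replicate 1 of DMSO at 6 days was furthest out, at 0.9814, against 0.9869 for replicate 1 of DOX at 3 days. All 6 epithelial markers passed the limit on low counts, with a summed level of 2120 to 2590 TPM (a scale that also divides by transcript length) in DMSO and 1570 to 1820 TPM in DOX. Of the 10 collecting duct markers, 3 passed, and the list summed to 6.93 to 10.2 TPM in DMSO and 3.12 to 5.08 TPM in DOX. *Aqp2*, which encodes aquaporin-2, had 0 to 9 counts per library and *Avpr2*, the vasopressin receptor that couples to Gs, 0 to 23, so the RNA carried little of these defining markers. No fibroblast marker passed, the 4 endothelial markers summed to at most 1.26 TPM, and of the 4 leukocyte markers only *Cd68* passed, with the list at 17.3 to 24.6 TPM in DMSO and 7.86 to 12.7 TPM in DOX. The summed epithelial, collecting duct and leukocyte markers were lower in every DOX library than in every DMSO library of the same day. These sums are in TPM, which does not carry the TMM scaling. Of the 6 epithelial markers 2 were called lower at 3 days and 3 at 6 days. Log2 fold changes of the 6 ran from -0.48 to 0.05 and from -0.75 to -0.13. Of the 3 tested collecting duct markers 2 and 3 were called lower, and *Cd68* was at both times. Of all tested genes 7.22% and 11.6% were called lower. The part of these markers in the results was not tested. The fibroblast sums overlapped between DMSO and DOX at both times and the endothelial sums at both times, with 0 genes of either list called. All libraries are of the cultured epithelial line mIMCD3, not of a tissue with several cell types. In bulk RNA, fewer cells carrying a transcript and less of it per cell cannot be told apart.

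Promoter sequence from RefSeq (GRCm38.p6), as windows from 250 bases before to 50 bases after a start, was found for 9 of the 10 genes, in 21 windows, and not for *Adcy6*. *Prkacb* and *Prkar2b* are shown because they are the members that fell at both times, and *Prkar1a* because it alone has the full cyclic AMP response element (CRE, TGACGTCA), to which CREB binds. Capitals mark the CRE or its core (TGACG, or CGTCA on the other strand), and each run is printed 5′ to 3′ on the strand of its gene. The runs of *Prkacb* (minus strand, chr3:146812991-146813196) and *Prkar2b* (minus strand, chr12:32061297-32061527) lie before both the RefSeq and the GENCODE start, and that of *Prkar1a* (plus strand, chr11:109650889-109650918) holds 30 bases around the CRE.
*Prkacb*: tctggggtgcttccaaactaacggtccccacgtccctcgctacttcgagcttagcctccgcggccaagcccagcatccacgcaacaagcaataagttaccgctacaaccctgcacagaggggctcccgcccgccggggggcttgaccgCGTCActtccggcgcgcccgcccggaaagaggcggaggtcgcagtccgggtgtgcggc
*Prkar2b*: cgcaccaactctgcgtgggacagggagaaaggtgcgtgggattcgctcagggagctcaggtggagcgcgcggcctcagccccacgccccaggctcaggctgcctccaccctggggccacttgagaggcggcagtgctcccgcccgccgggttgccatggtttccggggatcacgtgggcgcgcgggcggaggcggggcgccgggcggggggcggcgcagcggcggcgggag
*Prkar1a*: gcgaggcgcatTGACGTCAgcagccgaacg

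The window of *Prkacb* nearest to its annotated start held 1 CRE core, beginning 102 bases before the RefSeq start, and 3 GC boxes (GGGCGG on either strand), and 72% of its bases were G or C. The nearest window of *Prkar2b* held no CRE core and 4 GC boxes, with 75% G or C. In both windows the base composition was above the median of 52.7% over all 32817 mouse windows of this length. Taking for each gene the window nearest to its GENCODE start, 6 of 9 held a CRE core, 6 held a GC box, 2 a CCAAT box (CCAAT) and 0 a TATA box (TATAAA), against 20.8%, 35.6%, 37.4% and 13.6% of all windows, with both strands searched. The CRE core and the GC box both contain CG, and all windows had a median of 7 CG dinucleotides. The nearest windows of the members held 31 to 42, except those of *Adcy7* (6) and *Prkar1a* (7). The shares were not matched for this. The full CRE, in 1.79% of all windows, lay in 2 overlapping windows of *Prkar1a* that hold the same copy, and it counts as a core in those windows as well. The nearest windows of *Adcy7* and *Prkar2a* lie 10589 and 2829 bases from the GENCODE start. A match describes the letters of the window and is not evidence of a bound site.

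Among the 10 members, *Prkar1a* and the catalytic subunits of PKA had the highest levels in DMSO-treated cells, and the levels are compared per length, in TPM, as means over the 8 DMSO libraries. *Prkar1a*, the regulatory subunit of type I PKA (ENSMUSG00000020612, chr11:109649405-109669656, plus strand), was highest at 112 ± 9.35 TPM (SD, n = 8), which placed it at rank 1095 of 53354 genes. The catalytic subunits followed, *Prkaca* (ENSMUSG00000005469, chr8:83972993-83996443, plus strand) at 50.7 ± 2.55 TPM and *Prkacb* (ENSMUSG00000005034, chr3:146729574-146812990, minus strand) at 41.9 ± 3.13 TPM. Their ranges over the libraries, 45.6 to 54 and 36.6 to 46.2 TPM, overlapped, although *Prkaca* was above *Prkacb* in 8 of 8 libraries.

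*Adcy6*, a cyclase inhibited by calcium and by Gi and a main partner of the vasopressin receptor in the collecting duct (ENSMUSG00000022994, chr15:98589973-98610076, minus strand), reached 31.5 ± 4.59 TPM. *Prkar2a* (ENSMUSG00000032601, chr9:108689314-108750436, plus strand) and *Prkar2b* (ENSMUSG00000002997, chr12:31958476-32061296, minus strand), the regulatory subunits of type II PKA that bind anchoring proteins, had 22.5 ± 1.7 and 9.26 ± 0.769 TPM. *Adcy1*, a cyclase stimulated by calcium and calmodulin (ENSMUSG00000020431, chr11:7063489-7178506, plus strand), had 8.89 ± 0.713 TPM. Its order against *Prkar2b* was not fixed, because *Prkar2b* was higher in only 5 of 8 libraries and the ranges overlapped.

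The other cyclases were scarce. *Adcy9*, a widely expressed cyclase that responds poorly to forskolin (ENSMUSG00000005580, chr16:4287529-4420498, minus strand), had 2.47 ± 0.281 TPM. *Adcy7* (ENSMUSG00000031659, chr8:88272403-88329962, plus strand) had 0.267 ± 0.0684 TPM and *Adcy3*, the cyclase best known from olfactory cilia and found in primary cilia (ENSMUSG00000020654, chr12:4133103-4213525, plus strand), 0.163 ± 0.119 TPM. The ranges of these last 2 overlapped, and they rested on 19 to 35 and 3 to 12 counts per DMSO library. All positions are from GENCODE M21 on GRCm38. *Adcy3*, *Adcy6*, *Adcy9*, *Prkacb* and *Prkar2a* each overlap another annotated gene, on the opposite strand except for *Adcy9*. Strand-aware counting is not stated in the sources used here, so their values carry that uncertainty. The gene that overlaps *Adcy9*, the processed pseudogene *Gm6142*, lies on the same strand, where strand-aware counting would not separate them.

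**Figure D1:**
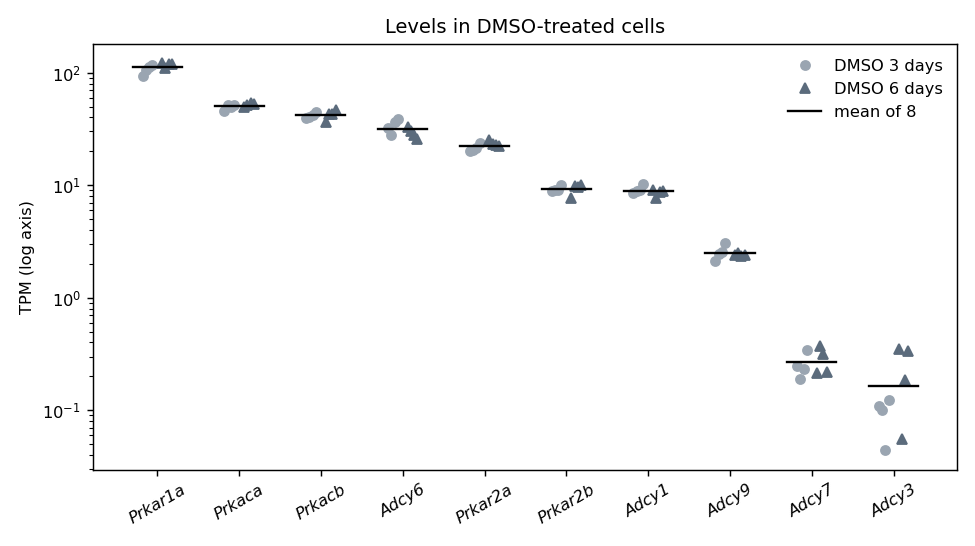
TPM of the 10 genes in the 8 DMSO-treated libraries, on a log axis, with circles for 3 days, triangles for 6 days and a bar at the mean of 8. *Prkar1a* lies highest at a mean of 112 TPM and *Adcy3* lowest at 0.163 TPM, and the symbols of *Prkar2b* and *Adcy1* lie at the same height.

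DOX was compared with DMSO at 3 days to ask what the drug alone did to the pathway at the earlier time. *Prkacb* and *Prkar2b*, a catalytic and a regulatory subunit of PKA, fell, by 25.5% and 29%, and no other member passed the test. A gene is called here when edgeR's glmTreat, which asks for a change above 20%, gave a Benjamini-Hochberg adjusted p under 0.05 over all 13234 tested genes. Of the 9 members tested, 2 were called, both lower, where 12.5% of all tested genes were called and 7.22% were called lower. *Adcy3*, with 3 to 18 counts per library, did not reach the limit of 1 CPM in at least 4 libraries and was not tested. The median log2 fold change was -0.33 over the 9 tested members and 0 over all tested genes. The 9 include *Adcy7*, which was tested through the DMSO groups, as given below.

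*Prkacb* had 158, 146, 148 and 147 CPM in replicates 1 to 4 of DMSO at 3 days and 125, 106, 108 and 107 CPM in those of DOX. Each DOX library lay below each DMSO library, and replicate 1 of DOX, the library that stood apart, was the highest of its group. The log2 fold change was -0.43 (SE 0.0642; adjusted p = 0.022 by edgeR glmTreat).

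*Prkar2b* had 26.5, 24.9, 22.4 and 24 CPM in DMSO and 16.8, 17.5, 16.1 and 19 CPM in DOX at 3 days. The groups were again separate. Its log2 fold change was -0.49 (SE 0.0867; adjusted p = 0.0167 by edgeR glmTreat).

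Both calls at 3 days lay close to the limit. DESeq2 called neither, with adjusted p of 0.177 for *Prkacb* and 0.165 for *Prkar2b*. Without replicate 1 of DMSO at 3 days, edgeR called neither (0.0635 and 0.0509). Leaving out DOX replicate 2 or 4 ended the call of *Prkacb* (0.0706 and 0.0622), leaving out DOX replicate 3 ended both (0.0598 and 0.0578), and without DOX replicate 1 both held and *Adcy6* was called too, so that 3 members were called.

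*Adcy6*, the most abundant cyclase, had 115, 111, 126 and 131 CPM in DMSO and 104, 78.4, 89.3 and 76 CPM in DOX at 3 days. The highest DOX library was the one that stood apart, and it still lay below the lowest DMSO library. The log2 fold change of -0.47 (SE 0.104) had an adjusted p of 0.0561 by edgeR glmTreat, and of 0.00713 with a log2 fold change of -0.57 when DOX replicate 1 was left out. It also passed when only the 8 libraries of 3 days were fitted (0.0432), under a filter of 1 CPM in all 16 libraries (0.0388) and with no filter beyond 1 count (0.00565), and when replicate 2 of DMSO at 3 days (0.0408), 1 of DMSO at 6 days (0.0311), or 1 (0.048) or 4 (0.0492) of DOX at 6 days was left out.

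The other cyclases did not pass at 3 days. *Adcy1* had 61.7 ± 2.97 CPM in DMSO and 60.4 ± 14.1 CPM in DOX (SD, n = 4), with 81.4 CPM in DOX replicate 1 and 51.2 to 55.9 CPM in the other DOX libraries. The wide SD thus came from 1 library. *Adcy9* had 9.91 ± 0.841 and 9.69 ± 1.83 CPM, and its highest DOX value, 12.2 CPM, was in the same replicate 1. *Adcy7* was at 0.877 to 1.41 CPM in DMSO and 0.349 to 1.08 CPM in DOX, on 7 to 27 counts. It reached 1 CPM before scaling in 7 of 8 DMSO libraries and 2 of 8 DOX libraries over both times, so it was tested through the DMSO groups. Its log2 fold change of -0.74 (SE 0.293) had an adjusted p of 0.178, and it was called without DOX replicate 3 (0.0476) and when no fold threshold was used (0.0446).

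Among the other PKA subunits, *Prkar2a* had 85.8 to 90.9 CPM in DMSO and 65.1 to 76.9 CPM in DOX at 3 days, without overlap. Its log2 fold change of -0.33 (SE 0.0619), a fall of 20.3%, did not pass the test for a change beyond the threshold (adjusted p = 0.246 by glmTreat). *Prkar1a* at 276 to 295 against 252 to 268 CPM was also separate by group, but its log2 fold change was only -0.14 (SE 0.047). *Prkaca* ranged from 85.9 to 95.9 CPM in DMSO and 82.6 to 86.5 CPM in DOX, which overlapped. In all, 5 of the 9 tested members had groups that did not overlap, each lower in DOX, where 38.6% of all tested genes did not overlap, 19.8% lower and 18.8% higher. When any change was tested, with no 20% threshold, 6 members passed at 3 days, all of them lower. Of all tested genes 45.2% passed and 22.2% were lower. The 6 include *Adcy7*, which was tested only through the DMSO groups, where it was higher.

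**Figure D2:**
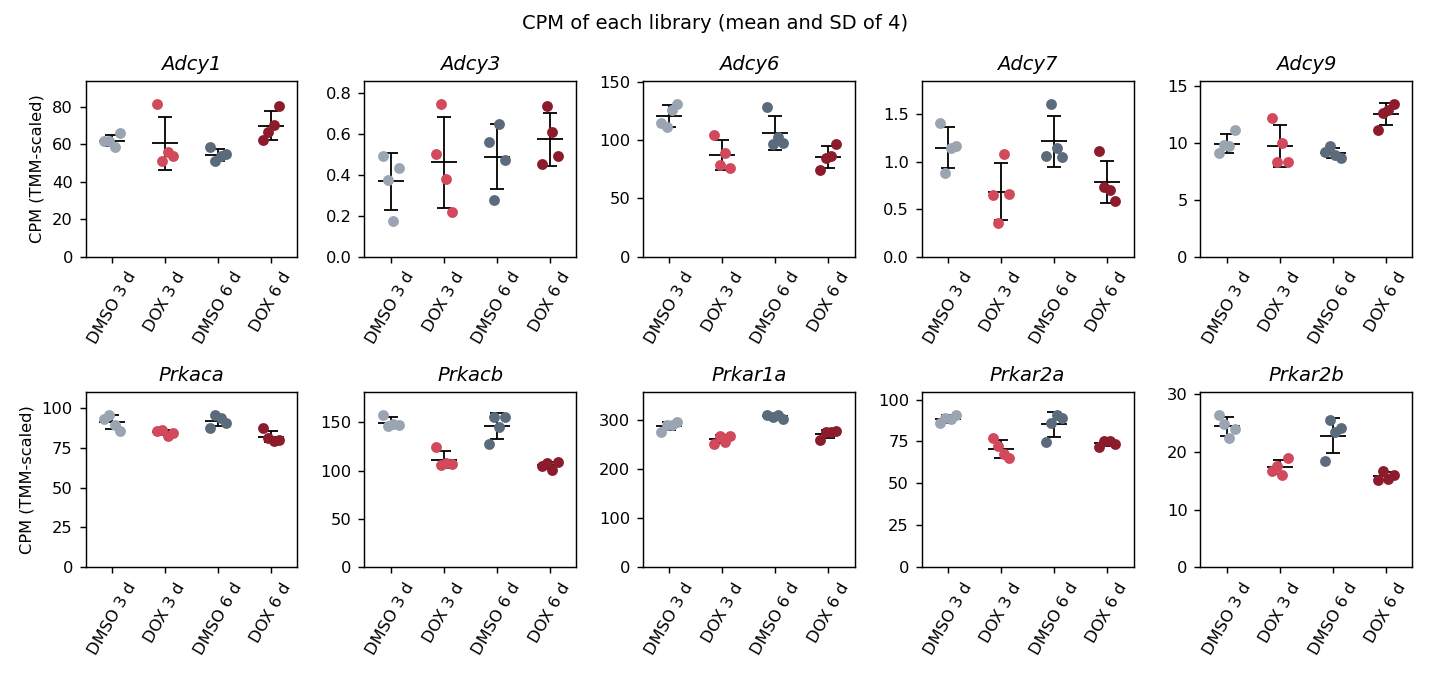
CPM of each of the 10 genes (TMM-scaled) in the 16 libraries by group, with points for libraries in replicate order and bars for the mean and SD of 4; each vertical axis starts at 0. *Prkacb* and *Prkar2b* lie lower in every DOX library than in every DMSO library of the same day, while *Adcy1* and *Adcy9* lie higher in every DOX library than in every DMSO library at 6 days only.

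At 6 days the same 2 PKA subunits were lower in DOX. *Prkacb* fell by 27.7% and *Prkar2b* by 30.9%, so 2 of the 9 tested members were called, both lower, where 21.6% of all tested genes were called and 11.6% were called lower. The median log2 fold change of the 9, *Adcy7* with its limit included, was -0.2, against 0 over all tested genes.

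*Prkacb* had 128, 156, 145 and 156 CPM in DMSO and 105, 108, 101 and 109 CPM in DOX at 6 days. The DOX libraries were close together, and replicate 1 was the lowest of the DMSO libraries. The log2 fold change was -0.47 (SE 0.0642; adjusted p = 0.00339 by edgeR glmTreat).

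*Prkar2b* had 18.4, 25.5, 23.5 and 24.1 CPM in DMSO and 15.2, 16.7, 15.4 and 16.1 CPM in DOX. Replicate 1 of DMSO was again lowest and lay closer to the DOX libraries than to the other DMSO libraries, without overlap. The log2 fold change was -0.53 (SE 0.0871; adjusted p = 0.00399 by edgeR glmTreat). Leaving out any 1 of the 16 libraries kept both calls at 6 days, as did DESeq2. With limma on log2(TPM + 1), *Prkar2b* was called and *Prkacb* was not (adjusted p = 0.0698).

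*Adcy9* and *Adcy1* were the only tested members with a positive log2 fold change at 6 days. *Adcy9* had 9.18, 9.71, 8.94 and 8.69 CPM in DMSO and 11.1, 12.6, 12.9 and 13.4 CPM in DOX. All DOX libraries were above all DMSO libraries, and the log2 fold change of 0.45 (SE 0.107) had an adjusted p of 0.0597 by edgeR glmTreat. It was called when only the 8 libraries of 6 days were fitted (0.0367), with no filter beyond 1 count (0.0443), and without replicate 1 of DOX at 3 days (0.0298) or of DOX at 6 days (0.0301).

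*Adcy1* had 58.2, 50.8, 53.4 and 54.5 CPM in DMSO and 62.1, 66.5, 70.4 and 80.3 CPM in DOX at 6 days. Those groups did not overlap either, but the DOX libraries were spread over a wider range, and the log2 fold change of 0.36 (SE 0.114) had an adjusted p of 0.228. *Adcy6* had 96.5 to 128 CPM in DMSO and 74.5 to 96.9 CPM in DOX, which overlapped, with a log2 fold change of -0.31 (SE 0.104; adjusted p = 0.382). *Adcy7*, on 12 to 35 counts, had a log2 fold change of -0.64 (SE 0.281; adjusted p = 0.189).

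The remaining PKA subunits differed little at 6 days. *Prkar1a* had 303 to 311 CPM in DMSO and 260 to 277 CPM in DOX, and *Prkaca* 87.7 to 95.7 and 79.3 to 87.3 CPM. Each pair of groups was separate, at log2 fold changes of -0.18 (SE 0.0469) and -0.17 (SE 0.0511) that stayed under the 20% threshold. *Prkar2a* had 74.8 to 91 CPM in DMSO and 71.8 to 75.5 CPM in DOX, which overlapped through replicate 1 of DMSO. Groups did not overlap for 6 of the 9 tested members, 2 higher and 4 lower in DOX, where 43% of all tested genes did not overlap, 22.1% higher and 20.9% lower. With no 20% threshold 8 members passed at 6 days, *Adcy1* and *Adcy9* higher and 6 lower, where 50.6% of all tested genes passed, 25.7% higher and 25% lower.

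**Figure D3:**
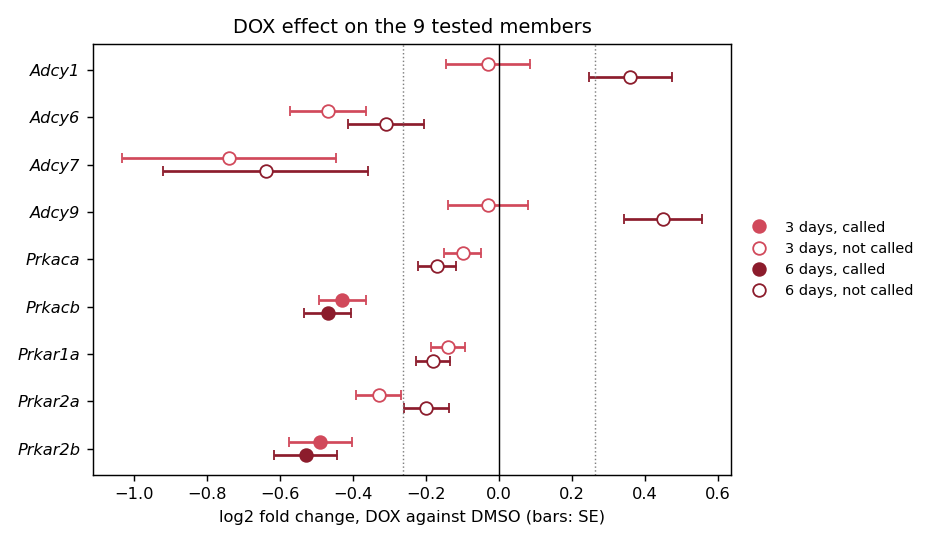
Log2 fold change of DOX against DMSO for the 9 tested members at 3 days and 6 days, with SE as bars, filled symbols for called genes and dotted lines at a fold of 1.2 in either direction. *Prkacb* and *Prkar2b* are filled at both times, from -0.43 to -0.53, and *Adcy1* and *Adcy9* lie at -0.03 at 3 days and at 0.36 and 0.45 at 6 days.

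Whether the DOX effect differed between the times was tested as an interaction, without a fold threshold. *Adcy9* was the only member called: its DOX effect was higher at 6 days than at 3 days by 0.49 on the log2 scale (SE 0.153; adjusted p = 0.0338 by edgeR's quasi-likelihood test), where 17% of all tested genes were called and 7.44% were called higher. For *Adcy1* the difference was 0.40 (SE 0.161; adjusted p = 0.0962). The other cyclases *Adcy6* and *Adcy7* had differences of 0.16 and 0.10, and *Prkar2a*, *Prkaca*, *Prkacb*, *Prkar1a* and *Prkar2b* had 0.12, -0.06, -0.04, -0.04 and -0.04. The *Adcy9* call depended on single libraries: it was lost on leaving out any 1 of 10 of the 16 (replicates 2 and 4 of DMSO at 3 days, 2, 3 and 4 of DOX at 3 days, 3 and 4 of DMSO at 6 days, and 2, 3 and 4 of DOX at 6 days), with adjusted p of 0.0534 to 0.0878. Without replicate 1 of DOX at 3 days it held and *Adcy1* was called as well, at 0.57 (adjusted p = 0.000391). With an offset for transcript length and GC content the *Adcy9* difference was 0.26 (adjusted p = 0.156).

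Time alone moved the members little. In DMSO, 0 of the 9 tested members and 0% of all 13234 tested genes were called by edgeR's glmTreat between 6 and 3 days. At an unadjusted p under 0.05 it gave 0 members and 172 genes, and DESeq2 and limma called 0 members as well. Log2 fold changes were -0.19 for *Adcy1* and *Adcy6*, -0.12 for *Adcy9* and 0.10 for *Adcy7*, and among the PKA subunits 0.01 for *Prkaca*, -0.03 for *Prkacb*, 0.10 for *Prkar1a*, -0.05 for *Prkar2a* and -0.09 for *Prkar2b*. Groups did not overlap for 2 of the 9, *Prkar1a* higher and *Adcy1* lower at 6 days, where 12.2% of all tested genes did not overlap. In DOX between 6 and 3 days 0 members were called, where 3.94% of all tested genes were, with 0 members and 1656 genes at an unadjusted p under 0.05, and groups did not overlap for 0 members, where 25.4% of all tested genes did not. The largest log2 fold change was that of *Adcy9*, 0.36 (SE 0.107; adjusted p = 0.454), from 8.3 to 12.2 CPM at 3 days to 11.1 to 13.4 CPM at 6 days. It was called with no 20% threshold, where 30.2% of all tested genes were, and without DOX replicate 1 of 3 days *Adcy9* was the 1 member called. Those of the other cyclases *Adcy1*, *Adcy6* and *Adcy7* were 0.21, -0.02 and 0.20, and those of *Prkaca*, *Prkacb*, *Prkar1a*, *Prkar2a* and *Prkar2b* ran from -0.13 (*Prkar2b*) to 0.07 (*Prkar2a*). The comparisons between times share their samples with those of DOX against DMSO.

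The make-up of each transcript pool followed from these levels and is given as shares of summed TPM, with no test. *Adcy6* made up 73.7 ± 2.08% of the 5 cyclases in DMSO at 3 days and 67 ± 1.91% in DOX (SD, n = 4), and 71.5 ± 2.59% and 62.2 ± 0.946% at 6 days. The summed cyclases were at 46 ± 5.73 TPM in DMSO and 32.3 ± 8.47 TPM in DOX at 3 days and at 40.6 ± 3.2 and 37.2 ± 5.94 TPM at 6 days. The *Adcy6* share was thus lower in every DOX library than in every DMSO library of the same day, whereas the sums overlapped at both times. At 3 days the sums overlapped only through DOX replicate 1, at 44.6 TPM. The other DOX libraries were at 26.4 to 30.9 TPM and the DMSO libraries at 39.6 to 52.7 TPM.

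*Prkacb* contributed 45.7 ± 1.35% of the catalytic subunits in DMSO and 40.2 ± 1.85% in DOX at 3 days, and 44.8 ± 1.68% and 39.4 ± 1.28% at 6 days. The summed catalytic subunits were 91.3 ± 4.71 and 67.9 ± 8.29 TPM at 3 days and 94 ± 5.81 and 73.2 ± 2.56 TPM at 6 days. *Prkar1a* made up 77.6 ± 0.954% and 80.3 ± 0.956% of the regulatory subunits at 3 days and 78.2 ± 0.773% and 80.1 ± 1.18% at 6 days. Summed regulatory subunits were 138 ± 12.2 and 106 ± 8.43 TPM at 3 days and 150 ± 4.27 and 126 ± 11.9 TPM at 6 days. Regulatory TPM divided by catalytic TPM was 1.5 ± 0.0594 in DMSO and 1.56 ± 0.061 in DOX at 3 days. At 6 days it was 1.6 ± 0.129 and 1.72 ± 0.112, and the groups overlapped at each time. At 3 days DOX replicate 1 had 1.47 and the other DOX libraries 1.57 to 1.61, against 1.44 to 1.57 in DMSO. At 6 days replicate 1 had 1.8 in DMSO and 1.55 in DOX. The other libraries had 1.53 to 1.56 in DMSO and 1.74 to 1.8 in DOX. TPM does not carry the TMM scaling: on log2(TPM + 1) the median of all genes lay 0.149 lower in DOX at 3 days, and sums in TPM carry that shift, which cancels in shares within a library.

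**Figure D4:**
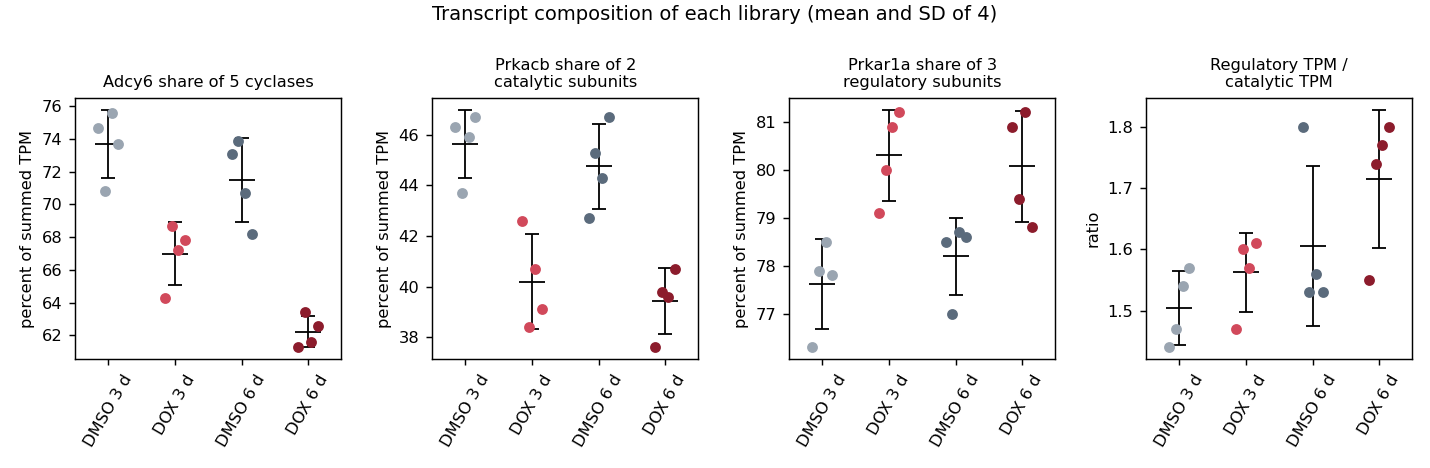
Shares of summed TPM (in percent) and the ratio of regulatory to catalytic TPM in each of the 16 libraries by group, with points for libraries and bars for the mean and SD of 4; the vertical axes do not start at 0. The *Adcy6* and *Prkacb* shares lie lower and the *Prkar1a* share higher in all DOX libraries than in the DMSO libraries of the same day, and the ratio overlaps.

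The genes whose CPM followed *Prkar2b* most closely, by Pearson's r of log2 CPM over the 16 libraries, were *Fam102b* (0.979), *Mgat4a* (0.973), *Trim2* (0.971), *Runx1* (0.97) and *Chmp4c* (0.97). The 16 points share the 4 groups and the r is a description. At 6 days these genes had log2 fold changes of -1.06, -0.66, -0.59, -0.61 and -0.32. No member was called higher, so no such list was made for a rise.

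The rest of the cyclic AMP pathway was read from 82 further listed genes. Like the members, they were chosen with earlier results of these data known. The shares below therefore cannot serve as a test of the pathway against all genes. Of the 82 genes 48 were tested. At 3 days 16 were called, 2 higher and 14 lower, which is 33.3% of those tested, and at 6 days 15, 4 higher and 11 lower, or 31.2%. Their median log2 fold changes were -0.2 and -0.14. DESeq2 called 8 and 9 of them, where it called 1019 and 1962 of all 13234 tested genes. Limma on log2(TPM + 1) called 6 and 6, where it called 686 and 1295 of 13180 genes. At 3 days 12.5% and at 6 days 21.6% of all tested genes were called, as above.

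Of the other enzymes of the same families, only *Prkx* was tested. The cyclases *Adcy2*, *Adcy4*, *Adcy5*, *Adcy8* and *Adcy10* did not reach the limit on low counts. *Prkar1b*, the remaining regulatory subunit, had 0 to 10 counts per library. *Prkx*, a kinase related to the catalytic subunits, was not called at 3 or 6 days, although it was called at 6 days without replicate 1 of DMSO (adjusted p = 0.00494). Its level was 8.08 ± 0.854 TPM over the 8 DMSO libraries, and its log2 fold changes were -0.37 (adjusted p = 0.162) and -0.40 (0.0697). Of 3 inhibitor proteins of PKA, 2 were tested and 0 were called at either time.

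Upstream, 3 of 13 Gs-coupled receptors were tested and 1 fell at both times, *Ptger4*, a prostaglandin E2 receptor, at log2 fold changes of -0.60 (adjusted p = 0.00559) and -0.59 (0.00345) by edgeR glmTreat. It had 27.9 to 33.5 CPM in DMSO and 16.2 to 25.8 CPM in DOX at 3 days. Its locus overlaps *Ttc33*, and those of *Adora1*, *Gnas*, *Gnaz* and *Dusp1*, given below, also overlap protein-coding genes on the opposite strand. Limma on log2(TPM + 1) did not call *Ptger4* at 3 days (0.0511) or 6 days (0.132). Of 6 Gi-coupled receptors 1 was tested, *Adora1*, an adenosine receptor, and it was called lower at 3 days (log2 fold change -0.48; adjusted p = 0.0155) and not at 6 days (0.07; adjusted p = 1), with an interaction of 0.55 (adjusted p = 0.00359 by edgeR). Its call at 3 days was lost in DESeq2 (0.135), with the length and GC offset (0.27), and without replicate 4 of DMSO (0.0514) or 3 of DOX (0.0668) at 3 days, and limma on log2(TPM + 1) did not call the interaction (0.0528). Of 7 G protein alpha subunits 6 were tested, with 0 higher and 2 lower at 3 days and 1 higher and 1 lower at 6 days. *Gnas*, which encodes Gs itself, was not called, at log2 fold changes of 0.02 and -0.14. *Gnai3*, an inhibitory alpha subunit, fell at 6 days by 24.5% (log2 fold change -0.41; adjusted p = 0.0214), from 306 to 381 CPM in DMSO to 257 to 284 CPM in DOX. *Gnaz*, another inhibitory subunit, rose at 6 days (log2 fold change 0.57; adjusted p = 0.02), at 3.77 to 4.82 CPM in DMSO and 6.03 to 7.36 CPM in DOX. DESeq2 called neither (adjusted p of 0.0985 and 0.216). The *Gnai3* call was lost without replicate 2 (0.0524), 3 (0.0769) or 4 (0.0543) of DMSO or 3 (0.057) or 4 (0.0592) of DOX at 6 days, and that of *Gnaz* without DMSO replicate 2 (0.0778) or DOX replicate 4 (0.0614).

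Beside PKA, cyclic AMP activates the exchange factor *Rapgef3* (Epac1), whose transcript fell by 30.3% at 3 days and 48.7% at 6 days. Its level went from 13.8, 15.1, 14.1 and 13.9 CPM in DMSO to 8.86, 8.87, 11.1 and 10.9 CPM in DOX at 3 days, and from 18.5, 17.5, 14.7 and 17.4 CPM to 9.45, 8.34, 7.77 and 9.38 CPM at 6 days. The groups were separate at both times, with log2 fold changes of -0.52 (adjusted p = 0.0161) and -0.96 (9.41e-07) by edgeR glmTreat, and the DOX effect was lower at 6 days by 0.44 on the log2 scale, which passed the interaction test (-0.44; adjusted p = 0.0297). The call at 3 days was lost in DESeq2 (0.167), with the length and GC offset (0.216) and without replicate 2 of DOX at 3 days (0.0682). The interaction was lost without replicate 3 (0.0503) or 4 (0.0615) of DMSO at 3 days, 3 (0.0762) or 4 (0.0717) of DOX at 3 days, 2 of DMSO at 6 days (0.0595), or 2 (0.061) or 3 (0.0724) of DOX at 6 days.

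Of 14 A-kinase anchoring proteins, which hold type II PKA at membranes and organelles, 9 were tested, and 1 was higher and 2 were lower at each time. *Akap12*, one of those that fell, was at 1350 to 1480 CPM in DMSO and 724 to 918 CPM in DOX at 3 days. By 6 days it was at 1230 to 1440 CPM and 653 to 769 CPM, a log2 fold change of -0.91 (adjusted p = 1.63e-07 by edgeR glmTreat). *Akap13*, which also activates RhoA, had -0.63 and -0.72 and *Akap7*, also known as AKAP18, 0.44 and 0.43 at the 2 times. Of 10 phosphodiesterases that degrade cyclic AMP 6 were tested, with 0 higher and 2 lower at 3 days and 0 higher and 1 lower at 6 days. *Pde4d* fell at both times, at log2 fold changes of -0.86 and -1.07, from 2.71 to 4.5 CPM in DMSO to 1.6 to 2.46 CPM in DOX at 6 days. *Pde4b* was called lower at 3 days (-0.71; adjusted p = 0.0322) and not at 6 days (-0.09; adjusted p = 1), and its call was lost in DESeq2 (0.233), in a fit of the 8 libraries of 3 days alone (0.0512), and without replicate 2 (0.0628) or 4 (0.107) of DMSO or 2 (0.0702), 3 (0.126) or 4 (0.0723) of DOX at 3 days. With the length and GC offset *Akap13* (adjusted p = 0.102) and *Akap7* (0.266) were not called at 3 days, and DESeq2 did not call *Pde4d* at 3 days (0.051) or *Akap7* at 3 (0.239) or 6 days (0.248). *Akap7* was also lost at 3 days without replicate 4 of DMSO (0.0511) or 3 of DOX (0.0538), and at 6 days without replicate 1 of DMSO (0.0502).

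Downstream, all 8 genes of the CREB family and its coactivators were tested. None was called at 3 days and 1 at 6 days, the coactivator *Crtc3* (log2 fold change 0.49; adjusted p = 0.0183 by edgeR glmTreat). That call was lost in DESeq2 (0.172) and without replicate 2 of DMSO (0.0562) or 3 of DOX (0.0732) at 6 days. *Creb1* was at -0.02 and 0.04. Of 12 listed CREB target genes 11 were tested, with 1 higher and 5 lower at 3 days and again 1 higher and 5 lower at 6 days. *Dusp1*, a phosphatase that switches off MAP kinases, went from 33 to 38 CPM in DMSO to 16.8 to 19.9 CPM in DOX at 3 days, and from 38.9 to 50.9 CPM to 14.8 to 17.6 CPM at 6 days (log2 fold changes -0.93 and -1.43). *Sik1*, a kinase that restrains the CREB coactivators, had log2 fold changes of -0.86 and -1.05 and *Fos*, an immediate early transcription factor, of -0.85 and -0.97. The target called higher was *Areg*, an EGF receptor ligand, at 1.03 and 0.84, and it was named after its values were seen. These targets also respond to other pathways, and no cyclic AMP or PKA activity was measured.

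**Figure D5:**
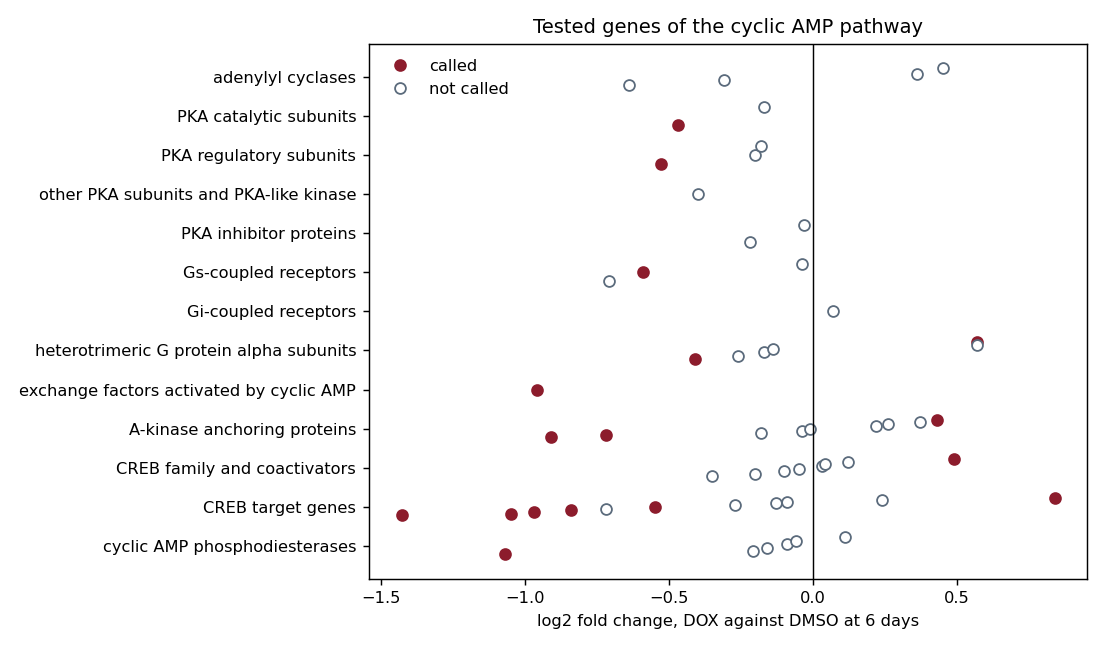
Log2 fold change of DOX against DMSO at 6 days for each tested member and pathway gene, 1 symbol per gene in rows by list, filled where called. The CREB target genes span from -1.43 to 0.84, and the symbols of the CREB family and coactivators lie between -0.35 and 0.49.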

How the data were processed

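Per the labels, reads were aligned to GRCm38.p6 with STAR 2.6.0c, and the submitters' processing notes also name Salmon. The authors deposited estimated counts per gene, not normalized, and TPM values per gene for the same 16 libraries. Both tables were used as deposited, apart from rounding the counts to whole numbers for the fit. Members were matched by symbol and Ensembl identifier, and all 54393 identifiers matched GENCODE M21. No column of the tables was left out.

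The 13234 genes that reached 1 CPM in 4 or more libraries entered the fit in edgeR 4.0.16 (R 4.3.3; TMM, robust quasi-likelihood, 1 mean for each group, 16 libraries). Contrasts used glmTreat with a fold threshold of 1.2, and the difference between times used glmQLFTest. Tests were two-sided, with Benjamini-Hochberg adjustment over all tested genes and a limit of 0.05. The SE is the log2 fold change divided by the square root of F. The floor in CPM covers counting error only. The SE comes from the quasi-likelihood fit and includes the spread between these libraries. Alternatives used RLE scaling, DESeq2 1.42.0, limma 3.58.1 on log2(TPM + 1) and log2(TPM + 0.1), other filters, no fold threshold, no robust estimation, a replicate block, an offset from splines with 5 degrees of freedom for length and GC, fits of the 8 libraries compared, and leaving out each library. The calculation was tested on simulated data with known changes.

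Members and lists were chosen with earlier results of these data known. The rule names all members in each comparison, except *Adcy3* where it was not tested. Of each other list, at most 3 genes called at 6 days with the largest absolute log2 fold change are named, plus *Gnas* and *Creb1*; genes most like the called members with the largest rise and fall are named by Pearson's r. *Prkx*, *Prkar1b*, *Pde4b*, *Adora1*, *Areg* and the markers named singly fall outside this rule.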

Additional observations from a re-analysis of the deposited data

Results flagged for a closer look

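In each group of 4 libraries, a member's highest or lowest value was compared with the next by its gap over the range of the group, and 4 of 40 groups had a gap ratio above Dixon's 95% critical value, where chance gives about 1 in 20. Replicate 1 of DOX at 3 days was high for *Adcy1* (81.4 CPM against 51.2 to 55.9; gap ratio 0.844) and for *Prkacb* (125 CPM against 106 to 108; 0.894), and this is the library whose difference from its group correlated with transcript length. Replicate 2 of DMSO at 6 days was high for *Adcy7* (1.61 CPM against 1.05 to 1.14; 0.84), on 35 counts. Replicate 1 of DOX at 6 days was low for *Prkar1a* (260 CPM against 275 to 277; 0.876). The DOX effect on *Adcy9* differed between 6 and 3 days by 0.49 on the log2 scale (edgeR's interaction test, adjusted p = 0.0338). Among the pathway genes, that on *Rapgef3* differed by -0.44 (adjusted p = 0.0297) and that on *Adora1* by 0.55 (adjusted p = 0.00359) in the same test. In all, 8 of the 48 tested pathway genes were called in it, or 16.7%, against 17% of all tested genes. The others were 2 G protein alpha subunits (higher, by up to 1.34), 1 anchoring protein (higher), 1 higher and 1 lower of the CREB family and coactivators, and 1 CREB target (lower). The part of length, depth or any library in these values was not tested beyond the alternatives given here.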

How the results depend on the processing

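Of 556 recomputed log2 fold changes of members, 492 kept their direction and side of the limit, 28 fell out of the calls, 25 came in and 11 changed sign; the causes were not tested. At 3 days 2 members were called, but 0 with DESeq2, 1 with limma on log2(TPM + 1) or log2(TPM + 0.1), and 6 with no fold threshold; leaving out 1 library gave 0 to 3. At 6 days the 2 calls became 1 with limma on either scale and 8 with no fold threshold, and 2 to 3 without 1 library. Between times, DMSO gave 0 throughout; DOX gave 1 with no fold threshold and 0 to 1 without 1 library. The interaction gave 1, but 0 with limma on either scale, a threshold of 1.2, or the length and GC offset with or without the block, 2 with no filter, and 0 to 2 without 1 library. The changes of sign were of *Adcy1* and *Adcy9* at 3 days: with the length and GC offset they were 0.2 and 0.14 (with the block 0.19 and 0.14), and without 1 library they ran from -0.21 to 0.04 and from -0.17 to 0.03. The *Adcy6* share at 6 days differed by -11.3 percentage points when taken from counts.

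Of 978 recomputed log2 fold changes of the pathway genes named beside the members, 884 kept their direction and side of the limit, 81 fell out of the calls, 3 came in and 10 changed sign. The changes of sign were near 0: *Gnas* at 3 days was -0.17 with limma on either scale and -0.02 to 0.05 without 1 library, and *Creb1* at 3 days was 0.12 with the length and GC offset, 0.11 with the block added, and -0.14 to 0.02 without 1 library, with -0.01 to 0.09 at 6 days; *Pde4b* at 6 days was -0.20 to 0.09 without 1 library. The 16 and 15 pathway genes called became 8 and 9 with DESeq2, and 6 and 6 or 9 and 8 with limma at pseudocounts of 1 and 0.1. With no fold threshold 25 and 24 of the 48 tested were called, where 45.2% and 50.6% of all tested genes were. At 3 days 9 were called with the offset and block, where 1506 of all 13234 tested genes were. Leaving out 1 library gave 11 to 16 and 12 to 16.

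With the replicate number as a block, the interaction had 0 members called (*Adcy9* adjusted p = 0.0607), and the counts for DOX against DMSO stayed at 2 and 2. Same-numbered libraries deviated from their group means with mean correlations of -0.0955, -0.121, -0.113 and -0.0981 in the 4 comparisons. These values gave no sign of pairing by number, but cannot show whether same-numbered libraries were handled together.

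Over all genes, 1658 were called at 3 days, against 1019 with DESeq2, 686 and 887 with limma and 5982 with no fold threshold. At 6 days there were 2856, against 1962 with DESeq2, 1295 and 1517 with limma and 6702 with no fold threshold. For DOX between times 522 became 243, 84, 109 and 4000 in the same order, and for DMSO 0 became 62 with no threshold. The interaction had 2252, against 651 and 641 with limma and 183 with the threshold. Limma on log2(TPM + 1) moved the median of all genes by -0.149 at 3 days, 0.156 in DOX between times and 0.104 in the interaction, and its calls at 3 days were 85 higher of 686, against 702 of 1658 with TMM. Counts under about 35 per library limit *Adcy3* and *Adcy7*.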
